A study of Mus musculus with 12 samples.

Results

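Hair follicle stem cells were compared with IFE cells of mouse skin by RNA sequencing, over 8 of the 12 libraries of the series. The members are the 4 libraries whose titles open with L and whose cell type is hair follicle stem cells (HFSC), and the 4 whose titles close with FC7 and whose cells are named IFE. The HFSC arm holds 2 libraries with the genotype EGFR_delta_LGR5 (L95 and L97, labelled knockout) and 2 with EGFR_fl_fl (L136 and L94, controls). In the IFE arm, 2 libraries have EGFR_delta_ep (E358 and E359, knockout) and 2 have EGFR_fl_fl (E341 and E360, controls). All 8 are thus written with an Egfr allele that is floxed or deleted, and no library is labelled wild type. The names tie the HFSC deletion to Lgr5, a gene that only part of the follicle uses, and the IFE deletion to the epidermis. Age, sex and the gate of the sort are not in the labels. The labels do not name animals, and the p-values therefore rest on the scatter among these 8 samples, part of which may be technical. HFSC titles carry L and IFE titles carry E, so compartment and whatever those letters stand for cannot be told apart.

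The skin surface is renewed by basal keratinocytes of the interfollicular epidermis, which divide and send daughters outward to make keratins and then the cornified envelope. The hair follicle keeps its own stem cells in the bulge, which rest for long periods under BMP signals and start to divide when WNT signals prevail. Cd34, Krt15, Lhx2, Sox9, Nfatc1, Tcf7l1 and Lgr5 are the usual marks of these follicle cells in mouse skin, and Krt1 and Krt10 those of suprabasal epidermis.

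Levels are CPM, reads per 1e6 reads in autosomal genes after scaling, and fold changes are HFSC minus IFE on the scale log2(CPM + 0.5), a scale that understates changes of weakly read genes. A gene was called at an adjusted p under 0.05 in a limma fit of all autosomal genes with genotype as a term. Reads in autosomal genes came to 11.2 to 16.3 M in HFSC and 11.03 to 12.7 M in IFE, and 14088 to 14531 autosomal genes had reads in HFSC against 12288 to 13435 in IFE. On a principal component analysis, the first component (62.6% of the variance) separated the compartments, and the second (11.5%) set IFE library E358 apart from the other IFE libraries. The median spread within groups was 0.31 in HFSC and 0.50 in IFE on the log2 scale. In bulk samples, fewer cells of a type and less RNA per cell cannot be told apart. The targeted gene Egfr, the receptor of epidermal growth factor, went against 1 of the labels. It had 336, 332, 393 and 432 CPM in HFSC, against 0, 0.326, 118 and 157 CPM in IFE, in the order of 2 knockout-labelled and then 2 control libraries that is kept for all library values below (L95, L97, L136 and L94, then E358, E359, E341 and E360). The knockout-labelled libraries held 81.0% of the control mean in HFSC and 0.118% in IFE, so "knockout-labelled" in HFSC refers to the label.

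Of 12673 autosomal genes tested, 4825 (38.1%) were called, 2573 (20.3%) higher and 2252 (17.8%) lower in HFSC. At an unadjusted p under 0.05 there were 5959. Changes above 8-fold were found among the calls for 749 genes higher and 333 lower in HFSC. All 4 HFSC libraries lay above all 4 IFE libraries for 19.7% of the tested genes and below them for 18% of them. The median log2 fold change over all tested genes was 0.16. No reads at all were found in the 4 IFE libraries for 219 of the tested genes, and in the 4 HFSC libraries for 31. These counts of genes, which lean to HFSC as the number of genes with reads per library does, are the background for the gene lists. A gene could pass the filter on low reads through 1 arm alone, list sizes below are of genes tested unless stated, and some genes stand in more than 1 list.

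**Figure D1:**
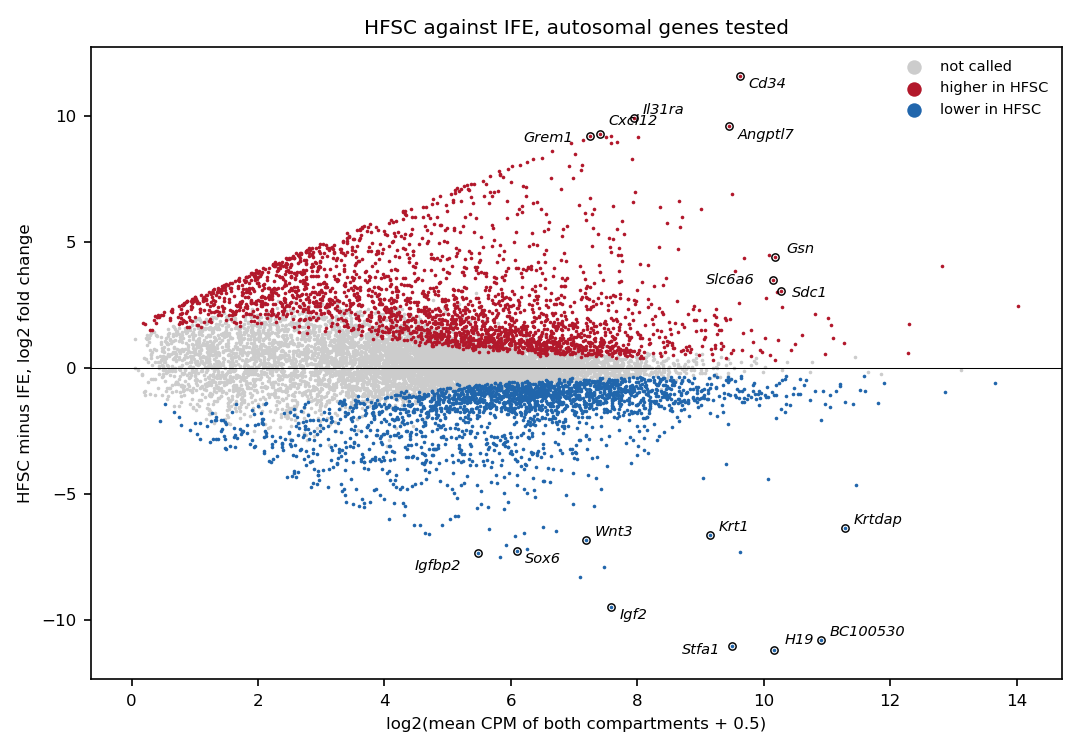
HFSC minus IFE log2 fold change (vertical axis) against log2 of the mean CPM of both compartments plus 0.5 (horizontal axis) for the 12673 autosomal genes tested by limma. Red points are the 2573 genes called higher in HFSC, blue points the 2252 called lower and grey points the rest. The named genes reach from Cd34 at the top to H19 and Stfa1 at the bottom, and the straight outer edges are genes at or near 0 reads in 1 compartment.

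Most bulge markers were high in every HFSC library, and the suprabasal keratins Krt1 and Krt10 in every IFE library. Cd34, a surface sialomucin, had 1458, 1339, 1354 and 2157 CPM in HFSC, against 0 reads in all 4 IFE libraries. It was at least 6222-fold higher in HFSC against 3 reads per library, with a limma adjusted p of 1.35e-08. Krt15, the type I keratin of the bulge, had 23525, 19349, 37028 and 32813 CPM in HFSC, against 4847, 4315, 6031 and 5066 CPM in IFE, which is a log2 fold change of 2.44 (SE 0.109, limma adjusted p = 4.57e-07). The arms did not overlap for either gene. Lhx2, a LIM homeobox factor that keeps follicle stem cells undifferentiated, had 282, 288, 263 and 398 CPM in HFSC, against 6.05, 6.35, 3.94 and 1.35 CPM in IFE. Lgr5, the R-spondin receptor of cycling follicle cells, had 358.3, 286, 133 and 337 CPM in HFSC, against 0.323, 4.15, 0 and 0 CPM in IFE. The changes were a log2 fold change of 6.12 (SE 0.385, limma adjusted p = 3.11e-06) for Lhx2 and a log2 fold change of 8.04 (SE 0.598, limma adjusted p = 6.68e-06) for Lgr5, and HFSC control L136 had the lowest Lgr5 of its arm.

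Sox9, a factor of the outer root sheath and bulge, was also read in IFE, with 2006, 1564, 1938 and 1761 CPM in HFSC, against 399, 267, 174 and 256 CPM in IFE. It showed a log2 fold change of 2.78 (SE 0.195, limma adjusted p = 4.84e-06). Nfatc1, a factor that holds bulge cells at rest, had 199, 212, 203 and 248 CPM in HFSC, against 2.50, 31.3, 28.7 and 5.87 CPM in IFE, which is a log2 fold change of 4.22 (SE 0.669, limma adjusted p = 0.000703); in the knockout-labelled libraries alone the adjusted p was 0.0623. All HFSC libraries lay above all IFE libraries for both factors, and IFE libraries E359 and E341 held more Nfatc1 than E358 and E360. Tcf7l1, a WNT-responsive repressor named among the bulge marks, did not pass: it had 27.5, 39.6, 17.3 and 31.3 CPM in HFSC, against 12.02, 19.7, 18.7 and 31.8 CPM in IFE, with overlapping arms and a 95% interval of the log2 fold change of -0.38 to 1.39.

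On the IFE side, Krt1, the first type II keratin of suprabasal cells, had 7.95, 4.40, 14.9 and 17.9 CPM in HFSC, against 1276, 786, 1731 and 706 CPM in IFE. Its partner Krt10 had 32.6, 30.8, 78.5 and 55.5 CPM in HFSC, against 1083, 858, 1432 and 656 CPM in IFE. Ly6a, the surface protein Sca-1 of epidermal and upper follicle cells, had 3.57, 3.89, 13.0 and 2.38 CPM in HFSC, against 135, 109, 109 and 166 CPM in IFE. All 3 genes were lower in every HFSC library than in any IFE library. Krt1 had a log2 fold change of -6.66 (SE 0.359, limma adjusted p = 1.39e-06), Krt10 a log2 fold change of -4.38 (SE 0.282, limma adjusted p = 3.31e-06) and Ly6a a log2 fold change of -4.64 (SE 0.458, limma adjusted p = 3.42e-05). The labels spell IFE as inner root sheath, and genes of that sheath did not all go in the same direction. Its keratin Krt25 had 1.05, 25.8, 17.0 and 2.84 CPM in HFSC, against 0 reads in all 4 IFE libraries. The factor Gata3 and the transglutaminase Tgm3 were higher in IFE (955 and 70.1 CPM) than in HFSC (456 and 0.913 CPM). Over the inner root sheath list, 3 of 8 tested genes were called higher and 2 lower in HFSC. The list summed to 993 to 1121 CPM in IFE and 439 to 615 CPM in HFSC, most of it Gata3. The abbreviation IFE is widely read as interfollicular epidermis, and it is kept here. Lor, loricrin of the cornified envelope, was low in both arms (0, 0, 0 and 0.198 CPM in HFSC, against 2.58, 0.895, 29.1 and 5.33 CPM in IFE), with a log2 fold change of -3.26 (SE 0.749, limma adjusted p = 0.00634); the calls of Krt25 and Lor were lost in the knockout-labelled libraries alone (adjusted p 0.149 and 0.0967).

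The keratins of the basal layer were abundant in both arms. Krt14 had 6406, 6126, 3937 and 4059 CPM in HFSC, against 11385, 9267, 10433 and 8287 CPM in IFE, which is a log2 fold change of -0.97 (SE 0.118, limma adjusted p = 0.000134). Krt5, its partner, had 7869, 6862, 9909 and 10125 CPM in HFSC, against 10567, 8858, 9684 and 7762 CPM in IFE. The arms of Krt5 overlapped, the gene was not called, and the 95% interval of its log2 fold change was -0.38 to 0.19. Trp63, the master factor of stratified epithelium, had 1496, 1273, 1126 and 1257 CPM in HFSC, against 936, 1015, 1121 and 1060 CPM in IFE and passed narrowly, with a log2 fold change of 0.31 (SE 0.107, limma adjusted p = 0.0405); the call was lost in 12 of the 27 alternatives (adjusted p up to 0.511). Klf4, a barrier factor, had 340.5, 414, 291 and 302 CPM in HFSC, against 197, 186, 357 and 191 CPM in IFE, with overlapping arms, an adjusted p of 0.0624 and an interval of 0.09 to 1.06. Library E341 was the high one in IFE.

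**Figure D2:**
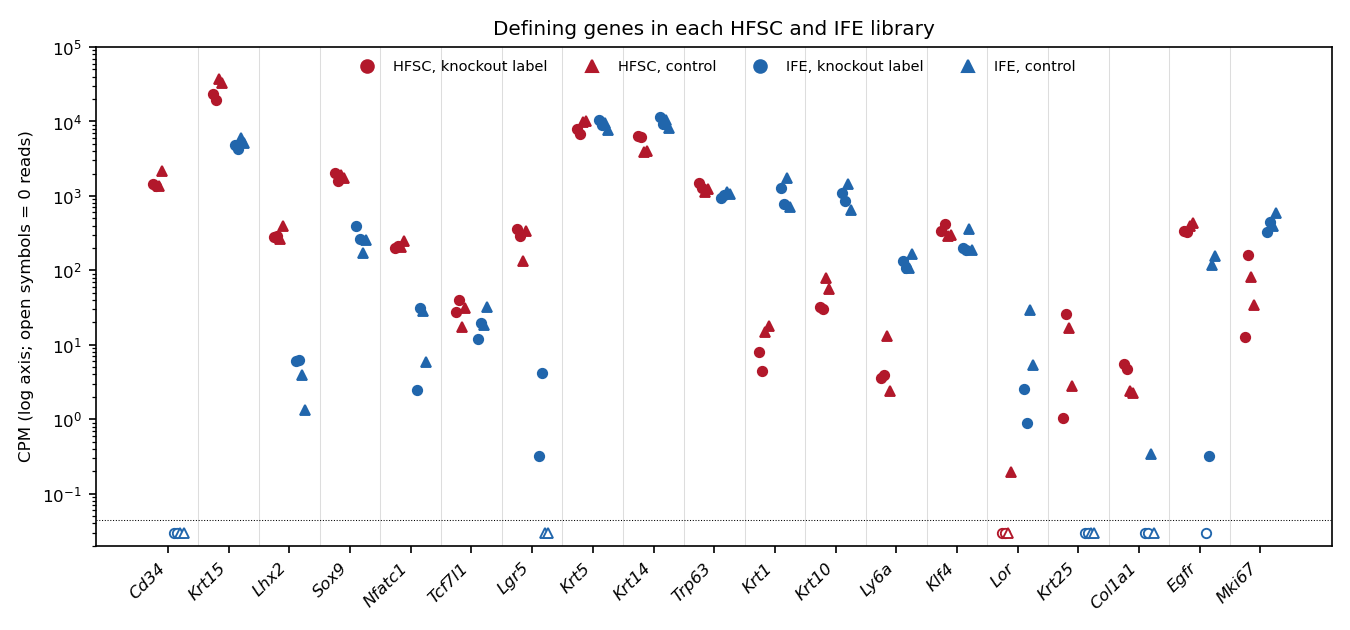
CPM on a log axis (vertical) of 19 defining genes in each library. Red symbols are HFSC and blue symbols IFE, circles are knockout-labelled and triangles control libraries, and open symbols below the dotted line are libraries with 0 reads. Cd34, Lhx2 and Lgr5 are separated upward in HFSC, Krt1, Krt10 and Ly6a upward in IFE, and Krt5 overlaps.

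Among called genes with arms that do not overlap and at least 20 CPM in the higher arm, the largest differences upward in HFSC were in Cd34, Il31ra, Angptl7, Cxcl12, Grem1, Pdzrn3, Calml3, Dapk2, Gfra1, Bhlhe41, Gm973, Thsd1, Ednra, Adamtsl4 and Gpc6. Il31ra, a receptor chain of the itch cytokine interleukin 31, had 643, 478, 353 and 506 CPM in HFSC, against 0 reads in all 4 IFE libraries and was at least 1953-fold higher in HFSC against 3 reads per library, with a limma adjusted p of 1.66e-07. Angptl7, a secreted angiopoietin-like protein, had 1630, 2528, 1080 and 372 CPM in HFSC, against 0.242, 2.69, 0 and 3.61 CPM in IFE, which is a log2 fold change of 9.58 (SE 0.715, limma adjusted p = 6.69e-06). Library L94 was the lowest of the HFSC arm and still far above each IFE library. Cxcl12, the chemokine ligand of CXCR4, had 395, 431, 149 and 378 CPM in HFSC, against 0 reads in all 4 IFE libraries and was at least 1335-fold higher in HFSC against 3 reads per library, with a limma adjusted p of 6.18e-07. Others of the 15 were at 280.2 ± 110.5 CPM in HFSC and 0 reads in IFE for the GDNF coreceptor Gfra1, 199.9 ± 46.4 CPM in HFSC and 0 reads in IFE for the endothelin receptor Ednra, 179.7 ± 37.6 CPM in HFSC and 0.0642 ± 0.129 CPM in IFE for the glypican Gpc6 and 259 ± 46.4 CPM in HFSC and 0.290 ± 0.426 CPM in IFE for the matrix protein Adamtsl4 (mean ± SD, n = 4 each). Calml3, a calmodulin-like protein of epithelia, had 499, 335, 622 and 597 CPM in HFSC, against 0, 0, 4.28 and 0 CPM in IFE.

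The largest differences downward were in H19, Stfa1, BC100530, Igf2, Gm15845, Npl, Pcdh20, Igfbp2, Stfa3, Sox6, Pglyrp4, C330046G03Rik, Wnt3, Klk11 and Krt1. H19, an imprinted noncoding RNA, had 1.73, 0.691, 0 and 0 CPM in HFSC, against 2697, 1358, 3396 and 1743 CPM in IFE, which is a log2 fold change of -11.22 (SE 0.462, limma adjusted p = 3.83e-07). Igf2, the growth factor gene that lies beside H19 and is imprinted with it, had 0 reads in all 4 HFSC libraries, against 548, 221, 468 and 294 CPM in IFE, and was at least 1824-fold lower in HFSC against 3 reads per library, with a limma adjusted p of 4.57e-07. Both genes are on chromosome 7 in mm10, H19 at 142575529 to 142578143, and both are best known for high levels before and shortly after birth. Igfbp2, a binding protein of insulin-like growth factors, had 0 reads in all 4 HFSC libraries, against 97.2, 58.1, 138 and 58.6 CPM in IFE and was at least 419-fold lower in HFSC against 3 reads per library, with a limma adjusted p of 4.51e-06. Stfa1, a stefin that inhibits cysteine proteases, had 0, 1.19, 0 and 0 CPM in HFSC, against 1568, 1107, 1455 and 1635 CPM in IFE, with a log2 fold change of -11.04 (SE 0.416, limma adjusted p = 1.80e-07). BC100530, a neighbour of Stfa1 on chromosome 16 (36359382 to 36367748), had 1.66, 7.73, 1.79 and 0 CPM in HFSC, against 4371, 3034, 4552 and 3465 CPM in IFE. Stfa3 averaged 13.3 ± 11.4 CPM in HFSC and 1565 ± 288 CPM in IFE; stefin genes have near-identical copies, so the split of reads among them is uncertain. Sox6, an SRY-box factor, had 0, 1.26, 0.805 and 0 CPM in HFSC, against 138, 118, 168 and 116 CPM in IFE, which is a log2 fold change of -7.26 (SE 0.542, limma adjusted p = 6.68e-06).

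The 10 smallest p were those of Cd34, Slc6a6, Krtdap, Il31ra, Sdc1, Gsn, Stfa1, H19, Grem1 and Id2. Slc6a6, the taurine transporter, had 1891, 1765, 2456 and 2186 CPM in HFSC, against 180.1, 149, 204 and 211 CPM in IFE, which is a log2 fold change of 3.48 (SE 0.1003, limma adjusted p = 2.81e-08). Gsn, the actin-severing protein gelsolin, had 2253, 2266, 2053 and 2316 CPM in HFSC, against 90.7, 98.7, 152 and 88.3 CPM in IFE. Sdc1, the heparan sulphate proteoglycan syndecan-1, had 2290, 2067, 2111 and 2388 CPM in HFSC, against 228, 290.3, 297 and 255 CPM in IFE. The arms of the 3 genes were far apart relative to the spread within them, with a log2 fold change of 4.40 (SE 0.165, limma adjusted p = 1.80e-07) for Gsn and a log2 fold change of 3.05 (SE 0.110, limma adjusted p = 1.66e-07) for Sdc1. Krtdap, a secreted protein of differentiating keratinocytes, had 38.8, 67.8, 56.4 and 82.2 CPM in HFSC, against 5119, 4463, 5127 and 5121 CPM in IFE, and a log2 fold change of -6.38 (SE 0.184, limma adjusted p = 2.81e-08).

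Promoter windows, from 250 bases before to 50 after the start, are shown for the genes at both ends of the ranking for which RefSeq (GRCm38.p6, the same assembly as mm10) held one, since these genes were near off in 1 compartment and abundant in the other. They are Cd34 (chr1:194938571-194938870, plus strand), Il31ra (chr13:112580613-112580912, minus strand), Angptl7 (chr4:148500413-148500712, minus strand) and Stfa1 (chr16:36276898-36277197, plus strand), and H19 and BC100530 were the other 2 genes of the rule. Motifs were searched on both strands, with overlaps allowed. The letters were TGANTCA for the AP-1 family, AGATAA for the GATA family and TAATTA for the LIM homeobox family. For the TCF/LEF family they were CTTTGA, for the SOX family of factors ACAAAG, for the KLF family of factors GGGTGTG and for the TATA box TATAAA. Capitals mark every match. The window of Il31ra held the SOX letters on both strands, 66 and 44 bases before the start, and that of Stfa1 held the GATA letters at 75 and 64 bases before it. The windows of Cd34 and Angptl7 held none of the 7 motifs.
Cd34: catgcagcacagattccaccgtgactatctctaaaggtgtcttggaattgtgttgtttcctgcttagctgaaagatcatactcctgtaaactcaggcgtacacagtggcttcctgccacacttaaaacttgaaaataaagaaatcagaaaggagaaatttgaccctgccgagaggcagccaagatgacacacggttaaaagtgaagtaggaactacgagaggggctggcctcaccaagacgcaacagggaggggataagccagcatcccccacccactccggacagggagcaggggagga
Il31ra: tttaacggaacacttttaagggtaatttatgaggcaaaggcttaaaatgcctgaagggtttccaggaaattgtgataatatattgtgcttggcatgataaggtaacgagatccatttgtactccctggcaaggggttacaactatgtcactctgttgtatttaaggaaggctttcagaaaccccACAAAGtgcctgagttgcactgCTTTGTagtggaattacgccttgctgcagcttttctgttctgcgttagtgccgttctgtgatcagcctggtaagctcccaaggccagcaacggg
Angptl7: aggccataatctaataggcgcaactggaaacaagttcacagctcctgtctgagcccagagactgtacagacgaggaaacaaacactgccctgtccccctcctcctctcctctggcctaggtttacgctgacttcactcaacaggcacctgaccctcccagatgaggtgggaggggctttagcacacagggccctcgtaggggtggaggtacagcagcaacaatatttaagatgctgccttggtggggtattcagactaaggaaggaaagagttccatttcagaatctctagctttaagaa
Stfa1: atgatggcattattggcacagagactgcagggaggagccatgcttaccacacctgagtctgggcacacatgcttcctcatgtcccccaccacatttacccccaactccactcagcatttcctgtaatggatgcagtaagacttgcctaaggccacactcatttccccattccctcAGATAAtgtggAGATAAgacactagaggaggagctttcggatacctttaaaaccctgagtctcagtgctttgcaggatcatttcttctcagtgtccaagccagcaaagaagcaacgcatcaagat

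Over 25748 autosomal genes with a window, the SOX letters were found in 18.6% and the GATA letters in 11.4%. Among tested genes the SOX letters were in 12.2% of windows of genes called higher in HFSC, 13.2% of those called lower and 13.3% of all tested genes. The GATA shares were 5.8%, 5.4% and 5.8%. AP-1 letters were in 6.0%, 5.3% and 4.9%, TCF/LEF letters in 11.5%, 13.1% and 11.7%, LIM homeobox letters in 2.0%, 2.1% and 2.4%, KLF letters in 8.8%, 8.3% and 8.6%, and the TATA box in 6.6%, 8.1% and 6.7%. A match describes the letters and is no sign of binding.

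The bulge programme was higher in HFSC than in IFE almost throughout. Of 11 tested bulge transcription factors, 9 were higher and 0 lower (median log2 fold change 2.78, against 0.16 over all tested genes). Beside Lhx2 and Nfatc1 the list was led by Tbx1, a T-box factor (13.0 ± 2.40 CPM in HFSC and 0 reads in IFE, at least 51.2-fold higher), and Foxc1, a forkhead factor of bulge quiescence (136.2 ± 28.9 CPM in HFSC and 9.32 ± 4.31 CPM in IFE). Runx1, Tcf7l2, Nfib and Nfix were called too, with log2 fold changes of 3.76, 2.12, 1.17 and 1.29. Gli2, the hedgehog effector, was not called (43.4 ± 15.8 CPM in HFSC and 62.4 ± 31.0 CPM in IFE). Of 18 tested bulge markers, 16 were higher and 2 lower, with a median of 4.67 (5.28 once members without reads in 1 arm are set to their bound). Krt24, a bulge keratin, averaged 492 ± 56.3 CPM in HFSC and 5.54 ± 4.04 CPM in IFE, Ltbp2, a latent TGF-beta binding protein, 152 ± 50.6 CPM in HFSC and 0 reads in IFE, and Cd200, a surface protein that restrains immune cells, 319 ± 67.8 CPM in HFSC and 13.9 ± 14.03 CPM in IFE. The 2 lower members are adhesion genes: Itga6, the laminin-binding integrin alpha 6, averaged 328 ± 32.2 CPM in HFSC and 777 ± 105 CPM in IFE, and the matrix protein tenascin C, Tnc, averaged 291 ± 46.6 CPM in HFSC and 467 ± 106 CPM in IFE. The arms of Tnc overlapped, at a log2 fold change of -0.66. Part of this programme was shared with the ORS libraries of the series, which serve as levels only. In ORS, Lhx2, Sox9, Nfatc1 and Lgr5 averaged 268.4, 2169, 481.6 and 401.6 CPM, against 307.7, 1817, 215.5 and 278.6 CPM in HFSC. Cd34, Krt15 and Krt24 were lower there, at 3.302, 4688 and 0.04858 CPM, against 1577, 28179 and 491.5 CPM in HFSC. Being higher than in IFE is thus not particular to HFSC for every gene of these lists.

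Genes of other follicle regions were mixed. Of 8 tested isthmus and infundibulum genes, 4 were higher and 1 lower (median 1.75). Krt79, a keratin of the upper follicle and sebaceous duct, had 272, 441, 545 and 196 CPM in HFSC, against 6.62, 5.37, 17.6 and 50.5 CPM in IFE, with arms that did not overlap. Cst6, a cysteine protease inhibitor, averaged 816 ± 626 CPM in HFSC and 14.7 ± 14.98 CPM in IFE, and the defensin Defb6 41.8 ± 18.1 CPM in HFSC and 0 reads in IFE. Lrig1, the junctional zone stem cell gene, was at 108 ± 18.7 CPM in HFSC and 105 ± 6.51 CPM in IFE and was not called. In the inner root sheath list 3 of 8 tested were higher and 2 lower: the keratins Krt25, Krt28 and Krt71 were higher but low (Krt71 averaged 13.7 ± 11.3 CPM in HFSC and 1.73 ± 3.47 CPM in IFE), and the transglutaminase Tgm3 and the factor Gata3 were lower. Tgm3 averaged 0.913 ± 1.02 CPM in HFSC and 70.1 ± 21.7 CPM in IFE and Gata3 456 ± 55.3 CPM in HFSC and 955 ± 70.3 CPM in IFE. No gene of the list was called higher in the knockout-labelled libraries alone. In the hair shaft and matrix list 3 of 7 tested were higher, Hoxc13 (77.9 ± 18.8 CPM in HFSC and 0 reads in IFE), Msx1 and Msx2, and 1 was lower, the WNT effector Lef1. The 11 remaining hair shaft genes in the files were below the filter.

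**Figure D3:**
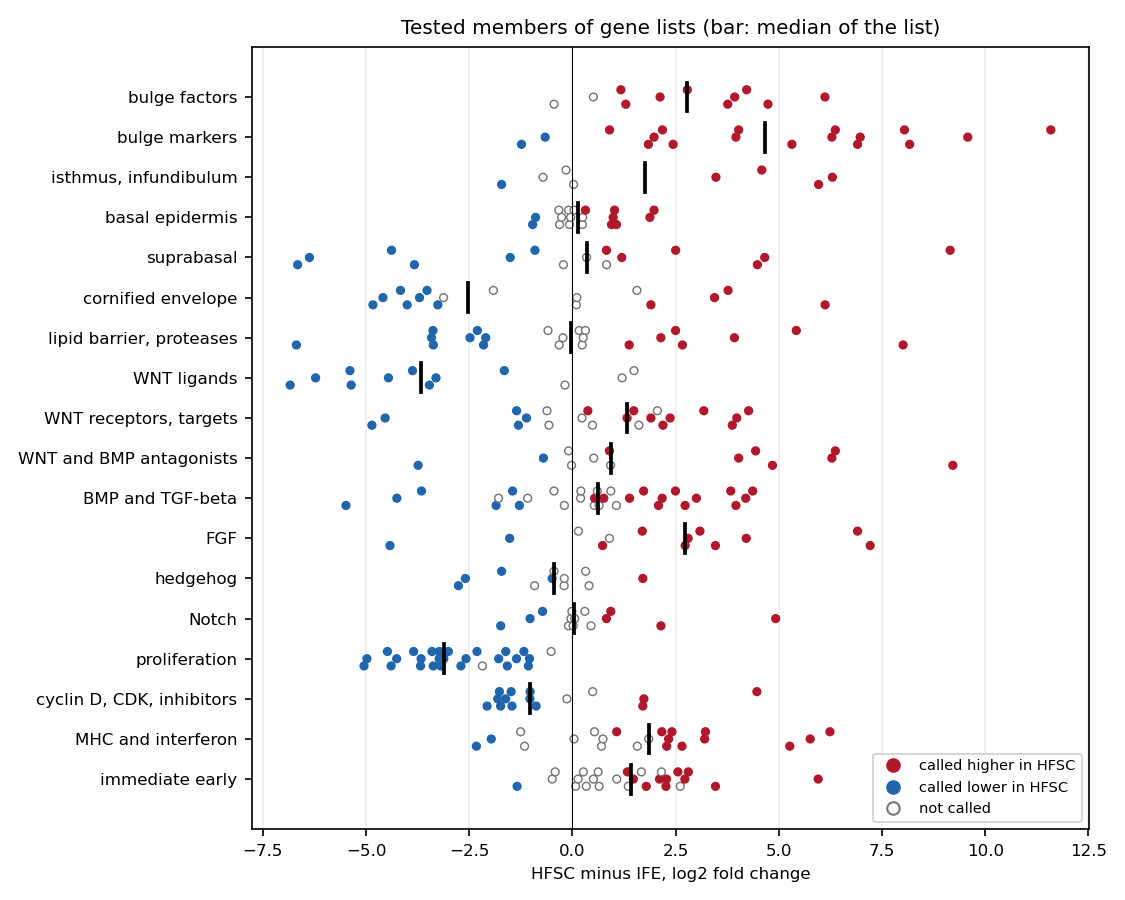
HFSC minus IFE log2 fold change (horizontal axis) of every tested member of 18 gene lists, 1 list per line. Red points were called higher in HFSC by limma, blue points lower, open points were not called, and the black bar is the median of the list. The bulge lists lie to the right, WNT ligands and proliferation genes to the left, and suprabasal genes on both sides.

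The epidermal side did not differ as 1 block. Of 18 tested basal epidermis genes, 7 were higher and 2 lower in HFSC (median 0.14), the higher ones being mostly hemidesmosome genes: Dst, Itgb4, Plec, Col17a1 and Lamb3 had log2 fold changes of 1.88, 1.07, 1.02, 0.95 and 0.99. Postn, the matrix protein periostin, averaged 3320 ± 809.7 CPM in HFSC and 839.7 ± 188 CPM in IFE. Of 15 tested suprabasal genes, 6 were higher and 6 lower, with a median of 0.34 that changed sign in some alternatives. Krt1, Krtdap, Krt10 and the calmodulin-like Calm4 (115 ± 109.8 CPM in HFSC and 1242 ± 204 CPM in IFE) were lower, whereas Calml3, Sbsn, the secreted suprabasin (2076 ± 184 CPM in HFSC and 98.5 ± 44.1 CPM in IFE), Skint3 (34.6 ± 13.0 CPM in HFSC and 1.30 ± 1.58 CPM in IFE) and Krt77 were higher.

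Of 35 cornified envelope genes 16 passed the filter, with 4 higher and 7 lower (median -2.52). The lower ones were 6 late envelope genes of the Lce1 family and Lor: Lce1c averaged 0.749 ± 0.581 CPM in HFSC and 74.7 ± 121 CPM in IFE and Lce1e 0 reads in HFSC and 27.4 ± 37.0 CPM in IFE, and their IFE levels came mostly from library E341. Copies of the Lce1 family may share reads. The higher ones were Sprr1a, a small proline-rich protein (185 ± 159 CPM in HFSC and 2.01 ± 1.57 CPM in IFE), Sprr4, involucrin (Ivl) and Cnfn. The list's count of lower genes was 4 without either HFSC control, and its median ran between -4.50 and 0.10 over the filters, pseudocounts and other alternatives that keep all 8 libraries or 1 genotype, so it has no stable direction.

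Barrier enzymes and proteases divided as well, with 7 higher and 8 lower of 22 tested (median -0.04). Alox12e, an epidermal lipoxygenase, averaged 242 ± 126 CPM in HFSC and 0.377 ± 0.401 CPM in IFE, the kallikrein Klk7 143 ± 117 CPM in HFSC and 14.8 ± 13.8 CPM in IFE and Spink5, an inhibitor of kallikreins, 170.1 ± 65.8 CPM in HFSC and 13.2 ± 18.2 CPM in IFE. Other kallikreins were lower, with 1.56 ± 2.54 CPM in HFSC and 131 ± 20.6 CPM in IFE for Klk11 and 21.1 ± 9.42 CPM in HFSC and 203 ± 33.6 CPM in IFE for Klk10, as were the elongase Elovl4 (6.11 ± 1.06 CPM in HFSC and 74.4 ± 28.3 CPM in IFE) and the protease Asprv1 (18.4 ± 13.2 CPM in HFSC and 165 ± 56.0 CPM in IFE). Of 9 tested Ly6 family genes, 1 was higher (Ly6g6c) and 2 lower, Ly6a and Ly6d (226 ± 97.5 CPM in HFSC and 5381 ± 500.3 CPM in IFE), and the median was -1.38. The share called was 33.3%, against 38.1% of all tested genes. Of 25 tested epidermal factors, 8 were higher and 7 lower (median 0.55). Prdm1 (7.12 ± 3.53 CPM in HFSC and 0 reads in IFE), Grhl1 (75.7 ± 27.3 CPM in HFSC and 10.6 ± 3.86 CPM in IFE), Maf (541 ± 23.4 CPM in HFSC and 105 ± 18.1 CPM in IFE) and Casz1 led the higher ones, and Klf5 (22.2 ± 6.90 CPM in HFSC and 228 ± 18.6 CPM in IFE), Pou3f1 (25.8 ± 15.5 CPM in HFSC and 189 ± 44.0 CPM in IFE) and Tfap2c were among the lower ones. Among keratins outside the hair, 3 of 8 tested type I genes were higher and 2 lower (median -0.14), and 5 of 11 type II genes were higher and 2 lower (median 1.58). Krt6a, a keratin of the companion layer and of stressed epidermis, had 2067, 1771, 1054 and 816 CPM in HFSC, against 1.77, 8.38, 44.9 and 17.0 CPM in IFE, with a log2 fold change of 6.89 (SE 0.707, limma adjusted p = 4.38e-05), and Krt75, a companion layer keratin, averaged 93.4 ± 24.1 CPM in HFSC and 0.0403 ± 0.0807 CPM in IFE. Krt7 was lower (2.62 ± 0.794 CPM in HFSC and 31.9 ± 10.7 CPM in IFE). In the stress keratinocyte list 2 of 9 tested were higher (Krt75 and Krt6a) and 3 lower (Stfa1, Stfa3 and Il1rn, 12.1 ± 5.62 CPM in HFSC and 143 ± 34.0 CPM in IFE), with a median of -1.26 that changed sign with the libraries used (0.025 without IFE control E341).

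Of 19 WNT ligands 12 were tested, of which 0 were higher and 9 lower in HFSC, with a median log2 fold change of -3.67. Wnt3, a canonical ligand, had 0, 2.76, 5.28 and 3.76 CPM in HFSC, against 284, 317, 280.5 and 273 CPM in IFE, which is a log2 fold change of -6.84 (SE 0.600, limma adjusted p = 1.72e-05). Wnt4 had 25.0, 45.1, 44.0 and 57.4 CPM in HFSC, against 593, 400.2, 456 and 412 CPM in IFE, with a log2 fold change of -3.47 (SE 0.245, limma adjusted p = 5.02e-06). Neither gene's arms overlapped. Wnt16 had 0 reads in all 4 HFSC libraries, against 12.4, 55.7, 62.9 and 42.1 CPM in IFE, and was at least 206-fold lower in HFSC against 3 reads per library, with a limma adjusted p of 3.30e-05. Wnt7a was also without reads in HFSC (0 reads in HFSC and 21.6 ± 7.38 CPM in IFE), and Wnt3a, Wnt6, Wnt7b, Wnt10a and Wnt10b had log2 fold changes of -4.46, -5.36, -3.88, -1.65 and -3.31. Wnt2b, Wnt5a and Wnt5b were not called; the noncanonical Wnt5a was at 5.84 ± 3.33 CPM in HFSC and 1.60 ± 0.676 CPM in IFE (adjusted p = 0.0786).

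Of 21 tested receptors, effectors and targets, 10 were higher and 5 lower (median 1.32). Fzd7, a WNT receptor, had 171, 164, 247 and 259 CPM in HFSC, against 17.99, 10.7, 10.8 and 5.14 CPM in IFE, which is a log2 fold change of 4.27 (SE 0.3603, limma adjusted p = 1.37e-05), and Fzd1, Fzd2 and Fzd3 had log2 fold changes of 3.98, 3.18 and 2.37. Ror2, the receptor of noncanonical ligands, averaged 6.84 ± 0.671 CPM in HFSC and 0 reads in IFE. Fzd10 went the other way, with 3.63, 4.84, 7.07 and 4.69 CPM in HFSC, against 156, 131, 147 and 202 CPM in IFE. Lef1, the nuclear partner of beta-catenin in dividing cells, had 18.8, 25.4, 5.10 and 0.792 CPM in HFSC, against 245, 151, 163 and 174 CPM in IFE. The changes were a log2 fold change of -4.86 (SE 0.286, limma adjusted p = 1.98e-06) for Fzd10 and a log2 fold change of -4.54 (SE 0.615, limma adjusted p = 0.000261) for Lef1, and neither pair of arms overlapped. Wls, which WNT ligands need to leave the cell, and the receptor-degrading Znrf3 were lower by less (-1.35 and -1.31). Axin2, the usual transcriptional readout of the pathway, was at 24.0 ± 11.2 CPM in HFSC and 35.9 ± 16.4 CPM in IFE and was not called.

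Secreted antagonists of WNT and BMP gave 7 higher and 2 lower of 13 tested and 21 in all. The median was 0.92, 1.952 without IFE control E341 and up to 2.78 in other alternatives. Sfrp1, a soluble frizzled-related inhibitor, had 702, 749, 1251 and 1321 CPM in HFSC, against 6.21, 60.6, 14.1 and 3.43 CPM in IFE, which is a log2 fold change of 6.29 (SE 0.695, limma adjusted p = 6.96e-05). Dkk3, a Dickkopf family protein, had 821, 579, 476 and 690.4 CPM in HFSC, against 0.807, 3.82, 18.3 and 31.1 CPM in IFE, with a log2 fold change of 6.37 (SE 0.673, limma adjusted p = 5.10e-05). Grem1, a BMP antagonist, had 281, 253, 268 and 408 CPM in HFSC, against 0 reads in all 4 IFE libraries, and was at least 1193-fold higher in HFSC against 3 reads per library, with a limma adjusted p of 4.07e-07. All HFSC libraries lay above all IFE libraries for the 3 genes, and IFE library E359 was the high one for Sfrp1. The BMP inhibitor noggin (Nog) and Fstl1 were higher too, with log2 fold changes of 4.44 and 4.85, as was Wif1 (9.58 ± 7.39 CPM in HFSC and 0 reads in IFE). Apcdd1 (4.88 ± 2.19 CPM in HFSC and 67.8 ± 7.74 CPM in IFE) and follistatin (Fst, a log2 fold change of -0.70) were lower.

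**Figure D4:**
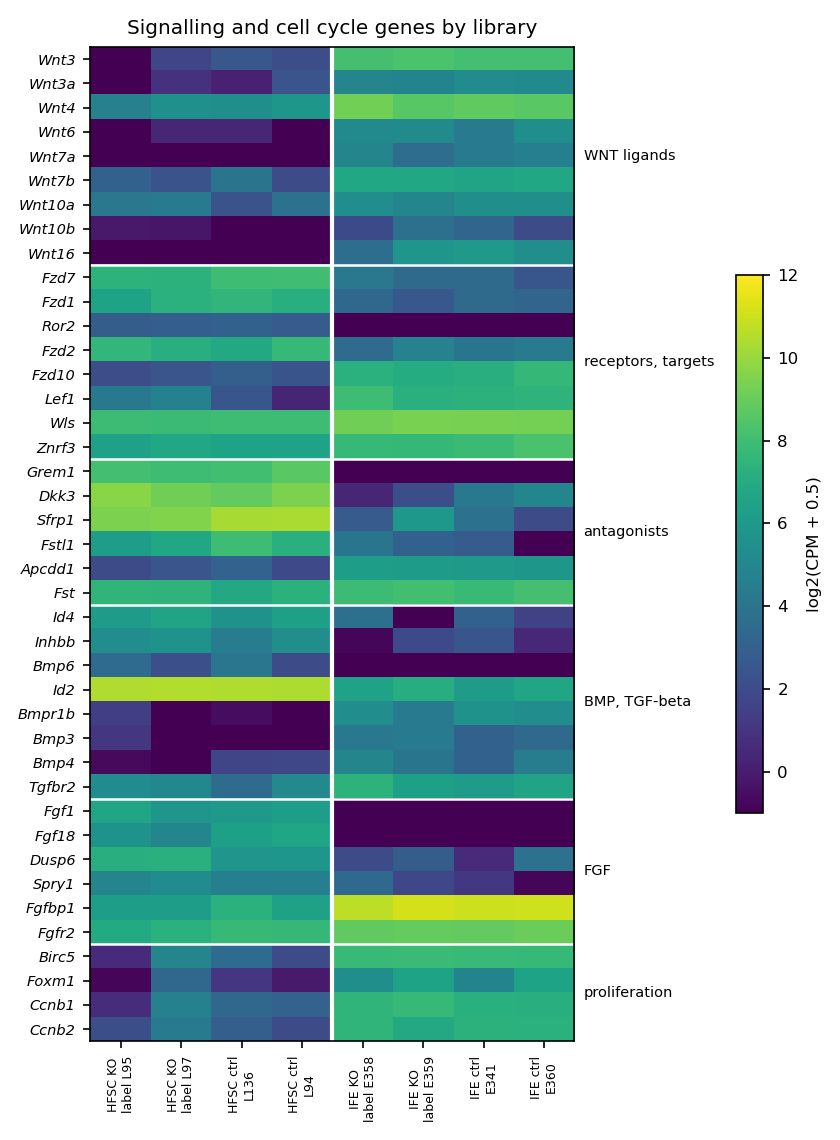
Levels as log2(CPM + 0.5) (colour, from -1 to 12) of called genes of 6 lists in each of the 8 libraries, with HFSC columns left of the white line and IFE columns right of it. Wnt3 and Wnt4 are bright in all 4 IFE columns, Sfrp1, Dkk3 and Id2 are bright in all 4 HFSC columns, and the mitotic genes at the bottom are dark in HFSC, Birc5 and Ccnb1 most of all in L95.

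Of 30 tested BMP and TGF-beta genes, 13 were higher and 6 lower in HFSC, with a median of 0.62. The 4 ID genes of the list, direct targets of BMP signals, were called higher. Id2 had 1385, 1449, 1379 and 1350 CPM in HFSC, against 88.0, 138, 71.9 and 101 CPM in IFE, and Id1 had 309, 338, 336 and 274 CPM in HFSC, against 43.2, 51.3, 62.8 and 66.7 CPM in IFE. Id2 showed a log2 fold change of 3.83 (SE 0.168, limma adjusted p = 4.57e-07) and Id1 a log2 fold change of 2.50 (SE 0.171, limma adjusted p = 4.51e-06), and Id3 and Id4 had log2 fold changes of 1.72 and 4.37. The inhibitory Smad6 and Smad7, also BMP and TGF-beta targets, were higher, Smad6 with 5.71 ± 1.204 CPM in HFSC and 0.298 ± 0.260 CPM in IFE and Smad7 with a log2 fold change of 2.73. Among ligands Bmp6 averaged 8.93 ± 6.45 CPM in HFSC and 0 reads in IFE, whereas Bmp4 had 0.123, 0, 2.77 and 2.90 CPM in HFSC, against 29.4, 15.9, 7.79 and 21.3 CPM in IFE, with a log2 fold change of -3.66 (SE 0.749, limma adjusted p = 0.00332), and Bmp3 and Bmp7 were lower (-4.25 and -1.45). Receptors moved apart, with Acvr1 and Bmpr1a higher (2.08 and 0.53) and Tgfbr2 (-1.85) and Bmpr1b (0.584 ± 1.05 CPM in HFSC and 38.5 ± 13.4 CPM in IFE) lower.

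Of 20 autosomal FGF genes 13 passed the filter, with 9 higher and 2 lower (median 2.73). That median ran between 2.04 and 2.72 without 1 library and between 1.16 and 3.11 in the other alternatives. Fgf18, a bulge ligand that prolongs rest of the hair cycle, had 49.9, 30.4, 83.3 and 98.9 CPM in HFSC, against 0 reads in all 4 IFE libraries and was at least 259-fold higher in HFSC against 3 reads per library, with a limma adjusted p of 6.68e-06. Fgf1 averaged 75.8 ± 21.1 CPM in HFSC and 0 reads in IFE, and among feedback genes Dusp6 averaged 102 ± 53.6 CPM in HFSC and 6.20 ± 5.56 CPM in IFE and Spry1 29.1 ± 7.71 CPM in HFSC and 3.78 ± 4.62 CPM in IFE. Receptors differed, since Fgfr1 was higher (3.09) and Fgfr2 lower (174 ± 40.1 CPM in HFSC and 491 ± 38.2 CPM in IFE). Fgfbp1, a secreted FGF carrier, was the most abundant lower member (98.4 ± 38.1 CPM in HFSC and 2039 ± 276 CPM in IFE). Hedgehog genes gave 1 higher and 4 lower of 11 tested (median -0.45), or 45.5% called against 38.1% of all tested genes. The targets Ptch1 (12.7 ± 6.12 CPM in HFSC and 75.0 ± 19.3 CPM in IFE) and Gli1 were lower, the arms of Gli1 overlapping. Notch genes gave 4 higher and 3 lower of 14 tested (median 0.03). Hey1 (15.3 ± 5.57 CPM in HFSC and 0 reads in IFE) and the ligand Jag1 (557 ± 203 CPM in HFSC and 122 ± 28.8 CPM in IFE) led the higher ones. The lower ones were the ligand-like Dlk2 (9.66 ± 3.15 CPM in HFSC and 33.6 ± 11.9 CPM in IFE), the ligand Dll1 and the target Hes1. Dll1 and Hes1 had log2 fold changes of -1.03 and -0.73, the arms of Hes1 overlapping. In the EGFR family list 2 of 12 tested were higher, Egfr and its ligand Tgfa, and 1 was lower, the protease Adam10 (median 0.25). The share called was 25.0%, against 38.1% of all tested genes. Without IFE control E341 5 genes were called higher, and with L95, L97, L136 or E358 left out 0 were called lower. The log2 fold change of Egfr was 5.31 with both labels and 1.59 in the controls alone, and the gene was called by limma in both. Erbb2 and Erbb3, its partner receptors, were not called (76.3 ± 5.91 CPM in HFSC and 70.2 ± 10.1 CPM in IFE, and 174 ± 26.7 CPM in HFSC and 145 ± 30.9 CPM in IFE).

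Genes of the dividing cell were lower in HFSC as a group. Of 27 tested proliferation genes, 0 were higher and 25 lower, with a median log2 fold change of -3.12. Mki67, the antigen Ki-67, had 12.8, 160.5, 81.5 and 34.7 CPM in HFSC, against 328, 445, 398 and 598 CPM in IFE, which is a log2 fold change of -3.12 (SE 0.621, limma adjusted p = 0.00282). Birc5, survivin of the mitotic spindle, had 0.986, 29.3, 11.1 and 3.43 CPM in HFSC, against 223, 229, 226 and 209.7 CPM in IFE, with a log2 fold change of -5.05 (SE 0.755, limma adjusted p = 0.000483). All 4 HFSC libraries lay below all 4 IFE libraries for 22 of the 27 genes, against 18% of all tested genes. The HFSC libraries differed widely among themselves, with L95 lowest and L97 highest for both genes. The mitotic genes Foxm1, Ccnb1 and Ccnb2 had log2 fold changes of -4.98, -4.49 and -4.39, and the replication genes Pcna, Mcm6 and Mcm7 of -1.62, -1.04 and -1.07. With the knockout-labelled libraries alone, which hold both L95 and L97, 8 of these genes were called lower, and Mki67 had an adjusted p of 0.145.

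Among regulators of the cell cycle entry, 3 of 15 tested were higher and 10 lower (median -1.03). Cyclin D2, Ccnd2, had 426, 514, 762 and 661 CPM in HFSC, against 1639, 2494, 1633 and 2248 CPM in IFE, with a log2 fold change of -1.77 (SE 0.184, limma adjusted p = 4.69e-05), and Cdk6 averaged 90.1 ± 17.2 CPM in HFSC and 378 ± 60.9 CPM in IFE. The inhibitor p27, Cdkn1b, had 349.5, 307, 349 and 294 CPM in HFSC, against 108, 106, 72.3 and 108 CPM in IFE, with a log2 fold change of 1.73 (SE 0.163, limma adjusted p = 2.62e-05). Cdkn2b, an inhibitor of another family, averaged 19.1 ± 8.82 CPM in HFSC and 0.749 ± 1.499 CPM in IFE and the pocket protein Rbl2 96.2 ± 7.15 CPM in HFSC and 31.9 ± 13.8 CPM in IFE. The inhibitors Cdkn1a, Cdkn1c, Cdkn2c and Cdkn2d were lower in HFSC (-1.49, -1.74, -1.81 and -1.47), so inhibitors did not move as 1 class.

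Of 21 tested genes of the interferon and MHC list, 11 were higher and 2 lower in HFSC (median 1.85). H2-K1, a class I heavy chain, had 623, 882, 395 and 881 CPM in HFSC, against 12.8, 14.3, 17.3 and 5.87 CPM in IFE, which is a log2 fold change of 5.76 (SE 0.343, limma adjusted p = 2.35e-06). B2m, the light chain beta-2 microglobulin, had 1137, 1260, 568 and 1113 CPM in HFSC, against 215, 153, 213 and 202 CPM in IFE, with a log2 fold change of 2.33 (SE 0.231, limma adjusted p = 3.61e-05). Tap2, a peptide transporter subunit, had 56.7, 50.5, 64.3 and 75.4 CPM in HFSC, against 0, 0.163, 0 and 2.17 CPM in IFE, with a log2 fold change of 6.24 (SE 0.598, limma adjusted p = 2.90e-05). No arms overlapped for these genes, and HFSC control L136 was the lowest HFSC library for H2-K1 and B2m. Nlrc5, the transactivator of class I genes, averaged 31.4 ± 10.6 CPM in HFSC and 0.487 ± 0.860 CPM in IFE, and H2-D1, H2-T23, Tap1 and Tapbp had log2 fold changes of 2.65, 2.28, 2.41 and 1.07. Class I genes have near-identical copies that may share reads. Irf1, an interferon-induced factor, was higher (23.5 ± 10.4 CPM in HFSC and 5.29 ± 6.35 CPM in IFE, adjusted p = 0.0425 by limma) with overlapping arms. The interferon-stimulated Isg15 and Ifitm3 were lower (2.46 ± 1.23 CPM in HFSC and 13.8 ± 3.33 CPM in IFE, and 79.9 ± 24.0 CPM in HFSC and 314 ± 85.5 CPM in IFE), and Ifit1, Irf7, Oasl2 and Bst2 were not called.

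Immediate-early and stress genes gave 11 higher and 1 lower of 26 tested (median 1.41), or 46.2% called against 38.1% of all tested genes. Egr2, a zinc finger factor, averaged 84.9 ± 13.0 CPM in HFSC and 1.11 ± 0.896 CPM in IFE, Ier3 318 ± 50.6 CPM in HFSC and 31.7 ± 16.1 CPM in IFE, Atf3 61.2 ± 27.6 CPM in HFSC and 12.8 ± 10.6 CPM in IFE and the phosphatase Dusp1 109 ± 59.0 CPM in HFSC and 16.8 ± 11.4 CPM in IFE. Fos and Junb were not called (176 ± 153 CPM in HFSC and 195 ± 135 CPM in IFE, and 42.1 ± 11.3 CPM in HFSC and 29.1 ± 5.17 CPM in IFE), and Fosl2 was lower (230.4 ± 52.8 CPM in HFSC and 584 ± 121 CPM in IFE). These genes also respond to the handling of tissue, whose part in the result was not tested.

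Markers of other skin cells were low in most lists and differed in a few. The summed level of 14 autosomal sebaceous markers was 960.2 to 1331 CPM in HFSC and 285 to 434 CPM in IFE, and 3 of 9 tested were higher in HFSC and 0 lower: Krt79, Mgst1 and Plin2. In the melanocyte list, summing to 203 to 309 CPM in HFSC and 14.7 to 29.9 CPM in IFE, 1 of 3 tested was higher, Mitf (217 ± 43.6 CPM in HFSC and 2.98 ± 5.23 CPM in IFE), while Pmel (11.4 ± 1.92 CPM in HFSC and 16.1 ± 6.13 CPM in IFE) and Dct were not called. The leukocyte list summed to 196 to 299 CPM in HFSC and 100 to 119 CPM in IFE, most of it Epcam (179 ± 55.2 CPM in HFSC and 74.8 ± 17.7 CPM in IFE), which keratinocytes also express. Its defining members Ptprc and Cd207 had 0 reads in all 8 libraries. Of 6 tested, Epcam and Cd74 (25.9 ± 13.1 CPM in HFSC and 2.58 ± 3.79 CPM in IFE) were higher, so the class II chaperone Cd74 stands beside the class I genes above, and its part in their result was not tested. The fibroblast list summed to 856 to 1359 CPM in HFSC and 921 to 1508 CPM in IFE, mainly from Sparc, which keratinocytes also express. Of 6 tested, Col1a1 was higher and Dcn lower. The sebaceous, melanocyte, leukocyte and fibroblast lists each had 33.3% of their tested members called, against 38.1% of all tested genes.

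Col1a1, a fibrillar collagen of fibroblasts, had 5.54, 4.77, 2.42 and 2.25 CPM in HFSC, against 0, 0, 0.343 and 0 CPM in IFE, and Dcn, the proteoglycan decorin, had 0, 7.66, 10.8 and 0 CPM in HFSC, against 284, 216, 189 and 129 CPM in IFE. Pdgfrb and Dpt had 0 reads in all 8 libraries. Dcn had a log2 fold change of -6.49 (SE 1.01, limma adjusted p = 0.000614). Col1a1 had a log2 fold change of 2.81 (SE 0.554, limma adjusted p = 0.00260), a call that was lost in controls alone (adjusted p = 0.0853). Dermal papilla markers summed to 3.40 to 9.30 CPM in HFSC and 0 to 5.42 CPM in IFE, with Crabp1 as the only gene tested and higher. Endothelial markers summed to 0.447 to 5.85 CPM in HFSC and 0 to 6.45 CPM in IFE and erythrocyte markers to 1.19 to 6.93 CPM in HFSC and 0 to 0.514 CPM in IFE, with 0 tested in each. Merkel cell markers summed to 0.616 to 5.03 CPM in HFSC and 0 to 0.942 CPM in IFE, nerve markers to 1.16 to 23.4 CPM in HFSC and 10.8 to 12.2 CPM in IFE and muscle markers to 3.40 to 14.8 CPM in HFSC and 5.53 to 17.8 CPM in IFE, and 0 of their tested genes were called. The part of these cells in the other results was not tested.

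Whether the compartment contrast depended on the genotype label was tested directly. In the fit with 4 groups, the HFSC minus IFE difference itself differed between knockout-labelled and control libraries for 1 of 12673 genes (0.00789%), Egfr, by 7.43 on the log2 scale (SE 0.465, limma adjusted p = 0.0014). That is the targeted gene, with the levels given above. At an unadjusted p under 0.05 there were 808 such genes, and limma-voom called 0. Next in order were Spink5 (6.32, adjusted p = 0.212), Muc15 (5.08, 0.238) and Pi15 (-3.36, 0.238), which did not pass. By reads of Xist and Y-linked genes, the HFSC controls and the IFE knockouts were female and the other 4 libraries male, so genotype label and sex cannot be told apart in this test, while each compartment held 2 libraries of each sex. The fits without a genotype term and with the 4 groups called 4904 and 4812 genes.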

How the data were processed

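RNA from HFSC and IFE cells was sequenced in 8 libraries with paired reads of 150 bp; RNA was isolated with PicoPure and copied with SMARTer Ultra kits, per the labels' protocols. The authors deposited 1 log2 value per gene and library, the log2 of reads per 1e6 of a library total. Trim Galore, DESeq2 and mm10 appear, without roles, in the submitters' processing notes. The aligner, counter, annotation and strand handling were not given in the sources used here. Whole reads were recovered from the deposited log2 values (at least 99.99% of values whole within 0.2 reads; genes with 0 reads carry the level of 0.9 read). No sample's file was left out of the 8, and ORS libraries serve as levels only.

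Autosomal genes that reached 10 reads (scaled to the median library) in 4 or more libraries were tested with limma 3.58.1 (R 4.3.3; trended, robust prior) on log2(CPM + 0.5) after TMM scaling, with compartment and genotype as terms (5 residual degrees of freedom). The deposited unit is log2, and no count model was used, though limma-voom on the recovered reads was among the alternatives. P-values are two-sided and adjusted by Benjamini-Hochberg over all tested genes. The fit was also run on data simulated from the observed means and spreads, with results that are not reported here. Replicate pairs had chi-square ratios of 43.0 to 84.3 per degree of freedom, so none is 1 library deposited again. Bounds against 0 reads use 3 reads per library and cover counting error only.

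Genes were named by rule: the 15 largest differences in each direction among called genes with arms that do not overlap and 20 CPM, the 10 smallest p, the defining genes, and up to 4 called members per list and direction, with other members chosen after their values were seen. The members and lists were chosen with earlier results of these data known. Some members that the rule picks are not reported here. Alternatives were pseudocounts, filters, scalings, priors, limma-voom, other designs, single genotypes, each library left out and, added after seeing the data, library weights.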

Additional observations from a re-analysis of the deposited data

Results flagged for a closer look

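The HFSC minus IFE difference of Egfr was larger in knockout-labelled than in control libraries by 7.43 on the log2 scale (limma adjusted p = 0.0014), with 334 ± 2.85 CPM in HFSC and 0.163 ± 0.230 CPM in IFE under the knockout label, and 413 ± 27.4 CPM in HFSC and 138 ± 27.9 CPM in IFE controls (n = 2 each). For Krt5 the contrast had opposite directions under the 2 labels. Both knockout-labelled HFSC libraries lay below both IFE knockouts (7365 ± 712 and 9713 ± 1208 CPM), and both HFSC controls above both IFE controls (10020 ± 153 and 8723 ± 1359 CPM). The difference of the differences was -0.61 (SE 0.182, unadjusted p = 0.00957) and did not pass in limma (adjusted p = 0.662).

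Of 101 groups of 4 libraries examined for 56 genes given library by library, 10 had 1 library apart from the other 3. The rule sets the gap to the outermost library against the range. It is met by construction where the other 3 libraries have 0 reads, as for Lor, Stfa1, Calml3 and Col1a1. A rate of about 1 in 20 by chance does not apply to such groups, and the groups also mix genotype labels. In HFSC, control L136 was low in Cxcl12 (149 CPM, the others 378 to 431 CPM) and B2m (568 CPM, the others 1113 to 1260 CPM). Control L94 had 0.198 CPM of Lor and knockout-labelled L97 1.19 CPM of Stfa1, with 0 in the others. In IFE, control E341 was apart in Klf4 (357 CPM, the others 186 to 197 CPM), Cdkn1b (72.3 CPM, the others 106 to 108 CPM), Calml3 (4.28 CPM) and Col1a1 (0.343 CPM), the last 2 with 0 in the others. Knockout E359 was low in Krtdap (4463 CPM, the others 5119 to 5127 CPM), and control E360 high in Tap2 (2.17 CPM, the others up to 0.163 CPM).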

How the results depend on the processing

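Over 27 alternatives no call of the 4825 changed sign. The number of calls stayed within 1.5 times except with 1 genotype alone, where 2 libraries a group were left: 2955 (1494 higher, 1461 lower) in controls and 2251 (1273 higher, 978 lower) in knockout-labelled libraries. Within each genotype label the HFSC and IFE libraries were of opposite sex, so compartment and sex cannot be told apart in those fits. Leaving out each library gave 3897 to 4893 calls (2047 to 2698 higher, 1850 to 2252 lower), and weighting libraries by the spread of their compartment, chosen after seeing the data, gave 4842. Scalings moved the median of all genes by less than 0.1. For the difference between genotype labels, limma-voom called 0 genes against 1.

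Of 19 defining genes, 10 kept direction and side in every setting. Tcf7l1 turned to -0.069 in controls alone. Krt5 turned to 0.21 there and ran between -0.219 and 0.018 without 1 library; neither gene was called. Nfatc1 (adjusted p = 0.0623) and Mki67 (0.145) lost the call in knockout-labelled libraries alone, as did Krt25 and Lor; Col1a1 lost it in controls alone. Klf4 passed in 9 alternatives. The median of 8 of 36 lists changed sign in some setting: suprabasal, cornified envelope, barrier, Ly6, epidermal factor, matrix, stress keratinocyte and type I keratin. The causes were not tested. No paired analysis was possible because HFSC and IFE titles share no number. Genes below 10 reads in most libraries were left out by the filter, and 4708 were called with no filter beyond 1 read.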

Other observations

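Of 12 tested desmosome genes, 5 were higher and 3 lower in HFSC (median 0.76). Dsg3, the desmoglein of basal cells, averaged 383 ± 71.8 CPM in HFSC and 75.7 ± 10.7 CPM in IFE and Perp 7681 ± 1506 CPM in HFSC and 2383 ± 881 CPM in IFE, while the suprabasal desmoglein Dsg1a averaged 154 ± 48.4 CPM in HFSC and 434 ± 107 CPM in IFE. Of 8 tested gap junction genes, 3 were higher and 2 lower (median 0.94), with connexin 26, Gjb2, at 301 ± 161 CPM in HFSC and 12.1 ± 13.6 CPM in IFE. Matrix genes gave 7 higher and 7 lower of 24 tested (median 0.28). The collagen VI chains Col6a1 and Col6a2 averaged 410.0 ± 84.5 CPM in HFSC and 21.8 ± 6.62 CPM in IFE, and 61.1 ± 8.55 CPM in HFSC and 1.36 ± 1.55 CPM in IFE, whereas Fras1, a basement membrane protein, averaged 13.1 ± 9.35 CPM in HFSC and 328 ± 96.99 CPM in IFE and the collagen IV chain Col4a1 33.6 ± 11.98 CPM in HFSC and 139.5 ± 29.1 CPM in IFE. Guidance genes gave 15 higher and 6 lower of 33 tested (median 0.41). Sema3e averaged 300.2 ± 36.3 CPM in HFSC and 3.499 ± 2.54 CPM in IFE, Slit3 26.2 ± 6.59 CPM in HFSC and 0 reads in IFE and Epha1 129.5 ± 66.3 CPM in HFSC and 7.28 ± 1.44 CPM in IFE, while Sema3d averaged 1.62 ± 0.755 CPM in HFSC and 96.5 ± 30.9 CPM in IFE and the SLIT receptor Robo1 5.72 ± 3.60 CPM in HFSC and 112 ± 33.1 CPM in IFE. HOX genes gave 6 higher and 5 lower of 24 tested (median 0.48), or 45.8% called against 38.1% of all tested genes, and 3 higher and 2 lower without HFSC library L95. Hoxb9 averaged 40.3 ± 12.5 CPM in HFSC and 9.67 ± 9.21 CPM in IFE. Glycolysis genes gave 4 higher and 3 lower of 19 tested (median -0.11), or 36.8% called, near the 38.1% of all tested genes. All medians stand against 0.16 over all tested genes.

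Genes known for high levels in fetal and newborn tissue were looked up after H19 and Igf2 had been seen, so they carry no test. Igf2bp1, an RNA-binding protein of fetal tissue, averaged 0 reads in HFSC and 48.9 ± 18.1 CPM in IFE, Igf2bp3 2.62 ± 1.32 CPM in HFSC and 120.4 ± 41.9 CPM in IFE and the chromatin protein Hmga2 0.282 ± 0.317 CPM in HFSC and 18.5 ± 6.97 CPM in IFE. The ORS libraries, whose titles carry E as those of IFE do, averaged 21.6 CPM of Igf2bp1, 139 CPM of Igf2bp3 and 41.3 CPM of Hmga2. H19 averaged 39.7 ± 19.98 CPM in ORS and Igf2 0.808 ± 0.939 CPM, against 2299 and 383 CPM in IFE. Any part of the title letter in these levels was not tested. Among imprinted genes, Plagl1 averaged 7.22 ± 3.46 CPM in HFSC and 64.3 ± 26.3 CPM in IFE and Peg3 116 ± 40.9 CPM in HFSC and 443 ± 53.6 CPM in IFE, while Mest averaged 9.17 ± 3.43 CPM in HFSC and 9.20 ± 7.64 CPM in IFE and Igf2r averaged 93.8 ± 30.9 CPM in HFSC and 45.4 ± 13.99 CPM in IFE.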
